A study of Mus musculus with 6 samples.

Results

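The 39 genes described here are the mouse members of the Slc22a and Slco families, which carry organic anions, cations and zwitterions across cell membranes. They are all genes, of 22180 tested, whose symbol begins with Slc22a (24 genes) or Slco (15 genes) and which had a probe set annotated with that 1 symbol. Slco2b1 had a second such probe set, and the brighter of the pair was kept. Liver RNA came from male C57BL/6N mice aged 2 months, with 3 cGK1-KO samples and 3 wild type samples. cGK1 is the cGMP-dependent protein kinase encoded by Prkg1. Per the series description the knockout mice had the kinase restored in smooth muscle, so the comparison concerns its loss in the remaining cells. The promoter that drives the rescue, the deleted exon and whether the controls also carried the rescue are not given in the sources used here. The labels do not state that the 3 samples of a group came from separate animals, and the p-values then reflect the variation among these 6 samples alone, part of which may be technical.

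Slco proteins (OATPs) take up bile acids, bilirubin, steroid conjugates, thyroid hormones and drugs, largely at the sinusoidal membrane of hepatocytes. The Slc22a family holds the organic cation transporters (OCT), the carnitine and zwitterion carriers (OCTN) and the organic anion transporters (OAT). Several of these genes are known to differ between male and female mouse liver. Slco1a1 is known to be higher in males, and Slc22a26, Slc22a27 and Slco1a4 in females.

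Values are log2 RMA expression, on which a difference of 1 is a 2-fold change in signal. RMA sets all arrays to a common distribution, so a shift of most transcripts in 1 direction would not be seen. The dim limit, the median of the mean values of all probe sets, was 3.11, and sizes of differences below it are uncertain. Prkg1 itself did not check the labels: its log2 difference was 0.11 (SE 0.15, 95% confidence interval -0.23 to 0.45, limma adjusted p = 0.837) at a level near the dim limit. Across all genes, which are not replicates, arrays correlated at 0.989 to 0.990 among controls and at 0.978 to 0.983 both among knockouts and between the groups. Hepatocyte markers summed to 37845 to 39428 linear units on the knockout arrays and 38413 to 40260 on the control arrays. Of the 10, 2 (Hnf4a and Tat) were lower and 1 (Fgb) higher at an unadjusted p under 0.05, against 5.46% and 5.06% of all genes. Their median log2 difference was -0.12. With bulk tissue, fewer cells of a type and less RNA per cell cannot be told apart. Macrophage markers lay higher in the knockout, 10 of 10 at an unadjusted p under 0.05 (5.06% of all genes) and with a median log2 difference of 0.84. Their summed level was 717 to 1660 on the knockout arrays and 545 to 587 on the control arrays. Knockout replicate 2 was the highest array for each of these 10 markers. For all but Adgre1, every knockout value lay above every control value. Of 8 endothelial markers, 2 (Lyve1 and Cdh5) were higher at that p, with sums of 689 to 1113 on the knockout and 619 to 635 on the control arrays. Of 8 neutrophil markers 3 were higher, with sums of 61.0 to 68.4 and 53.0 to 56.7, and 5 were below the dim limit in both groups. Of 6 enterocyte and exocrine pancreas markers 1, Fabp2, was lower, with sums of 218 to 282 and 367 to 414. Fabp2 was by far the brightest of them (log2 means 7.71 and 8.46), so these sums mostly reflect that 1 gene. The others differed by -0.18 (Muc2) to 0.07 (Cpa1). Among 9 T, B and NK cell markers 1, Cd3e, was higher at that p, with sums of 92.4 to 98.0 and 80.7 to 89.2. Below the dim limit in both groups were 5 of these 9. Stellate cell and fibroblast markers had 1 higher (Col3a1) and 1 lower (Acta2) of 10, and adipocyte markers 1 lower (Cidec) of 5. The stellate cell and fibroblast sums were 740 to 1494 on the knockout and 676 to 834 on the control arrays. Dcn, the brightest of them, was highest on knockout replicate 2 (9.80), as were Lyve1 and Cdh5 among the endothelial markers. Cholangiocyte (6) and erythroid (1) markers had 0 at that p. The part of these cell types in the transporter results was not tested. Kidney markers, of interest because many Slc22a genes are kidney transporters, had 0 of 11 members at an unadjusted p under 0.05, which 10.5% of all genes reached. Of these 11, 7 were below the dim limit in both groups, and their summed level was 80.9 to 101 on the knockout and 79.3 to 89.1 on the control arrays.

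Of the 5 transporters with an unadjusted p under 0.05, 3 belong to a run of neighbouring Slc22a genes, so start regions of 4 genes of this run are shown. Each is 300 bases, from 250 before to 50 after the annotated start, from RefSeq on GRCm38.p6, where 34 of the 39 genes had an entry. All 4 lie on the minus strand and are written 5′ to 3′. Slc22a26 (chr19:7802618-7802917) and Slc22a27 (chr19:7965978-7966277) are shown because they had the largest positive differences. Capitals mark a match to the STAT5 motif TTCNNNGAA or the core HNF1 motif GTTAAT, on either strand.
Slc22a26: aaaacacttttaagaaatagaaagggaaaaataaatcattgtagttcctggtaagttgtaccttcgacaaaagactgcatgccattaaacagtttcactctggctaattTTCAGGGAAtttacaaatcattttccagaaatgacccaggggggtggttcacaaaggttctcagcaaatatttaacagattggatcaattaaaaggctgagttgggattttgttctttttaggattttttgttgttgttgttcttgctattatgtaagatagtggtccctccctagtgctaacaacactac
Slc22a27: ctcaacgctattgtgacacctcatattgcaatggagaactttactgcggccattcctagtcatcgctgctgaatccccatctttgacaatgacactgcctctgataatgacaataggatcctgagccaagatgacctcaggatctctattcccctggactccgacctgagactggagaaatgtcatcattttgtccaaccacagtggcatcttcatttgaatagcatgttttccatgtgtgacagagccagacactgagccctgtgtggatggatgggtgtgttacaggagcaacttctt
Slc22a28 (chr19:8131933-8132232) and Slc22a30 (chr19:8405056-8405355) are shown because they were the most alike pair. Here capitals mark bases that differ between them or have no counterpart in the other window.
Slc22a28: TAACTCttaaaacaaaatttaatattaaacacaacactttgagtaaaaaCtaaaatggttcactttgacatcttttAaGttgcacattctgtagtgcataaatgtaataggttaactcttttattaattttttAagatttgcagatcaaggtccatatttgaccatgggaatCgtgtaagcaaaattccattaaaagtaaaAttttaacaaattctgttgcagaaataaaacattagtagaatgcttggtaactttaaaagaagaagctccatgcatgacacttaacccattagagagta
Slc22a30: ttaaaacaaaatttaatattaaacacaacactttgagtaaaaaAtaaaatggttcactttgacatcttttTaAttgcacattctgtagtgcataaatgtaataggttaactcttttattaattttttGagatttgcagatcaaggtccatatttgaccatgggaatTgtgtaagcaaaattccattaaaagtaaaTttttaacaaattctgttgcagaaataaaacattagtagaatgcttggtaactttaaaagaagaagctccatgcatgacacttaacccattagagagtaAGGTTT
The windows of Slc22a28 and Slc22a30 were offset by 6 bases and were identical at 288 of 294 aligned bases (98.0%). By global alignment over all columns this pair reached 94.1%. The other 14 pairs among Slc22a19 and Slc22a26 to Slc22a30 lay between 43.2% and 68.0%, with Slc22a26 against Slc22a27 at 44.5%. The genes of this run are close paralogs, and whole-transcript probe sets of paralogs can cross-hybridise, so the values of single members are uncertain. The Slc22a26 window held 1 STAT5 match, beginning at position -141 from the start, and the Slc22a27 window held no match to either motif. Other genes of the families held STAT5 matches too: the Slc22a19 window in the same run, whose gene differed by 0.11, held 2, and 7 of the 34 genes held at least 1, Slco1b2 and Slco2b1 among them. The HNF4 motif CAAAGTCCA was found in 0 of the 39 windows of these genes (0.475% of all windows), and the C/EBP motif TTGCNNAA in 5 (10.8% of all windows). Over all 32851 promoter windows of this length, 8.30% held a STAT5 match and 7.10% the HNF1 motif. A match describes letters and does not show a bound site.

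No transporter passed the test over all genes. By limma with Benjamini-Hochberg adjustment, 0 of 39 passed an adjusted p of 0.05, as did 0% of all 22180 genes. At an unadjusted p under 0.05 there were 5 of 39 (12.8%), against 10.5% of all genes. Of these, 3 lay higher in the knockout (Slc22a26, Slc22a27 and Slc22a29), where 5.06% of all genes did. The other 2, Slco1a1 and Slc22a5, lay lower, where 5.46% of all genes did. The share of members is thus near that of all genes. Leaving out 1 array at a time gave 3 to 4 higher and 1 to 4 lower. Slc22a5 lost its unadjusted p under 0.05 without knockout replicate 1, knockout replicate 3, control replicate 1 or control replicate 2. Slc22a29 lost it without control replicate 2. Without knockout replicate 3, 3 members passed the adjusted threshold. The median log2 difference of the 39 was 0.03 (all genes 0.00), and 28 differed by less than 0.3 in either direction. For 5 members every knockout value lay above every control value (7.61% of all genes), and for 3 every knockout value lay below (9.14% of all genes). Of the 39, 18 had at least 3 arrays above the dim limit and 21 did not.

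**Figure D1:**
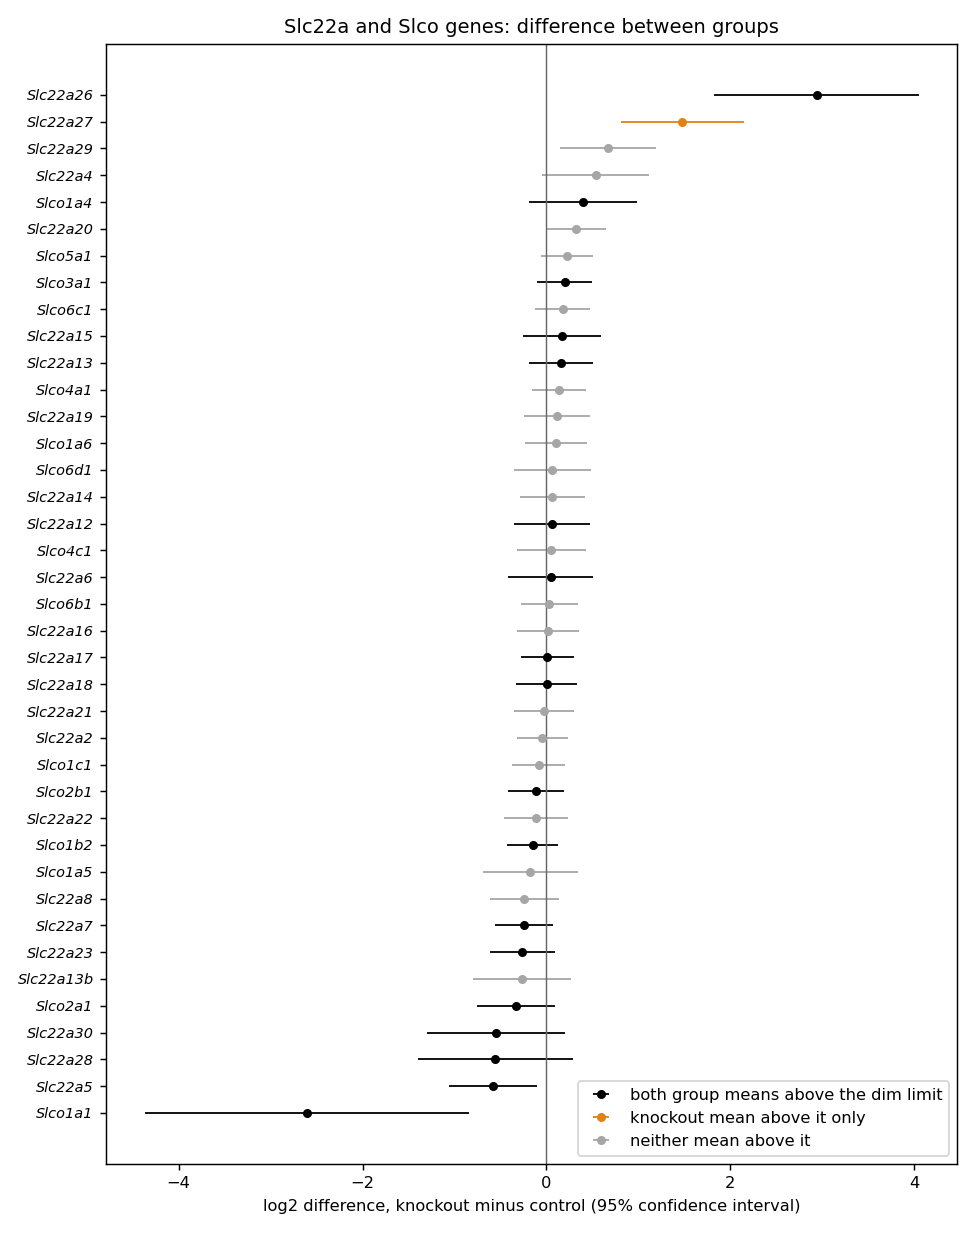
Log2 difference (knockout minus control, x axis) with its 95% confidence interval from limma for each of the 39 genes (y axis), n = 3 arrays per group. Colours give whether the group means lie above the dim limit of 3.11. Slc22a26 (2.94) and Slco1a1 (-2.61) lie at the ends, and 28 genes lie within 0.3 of 0.

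Slc22a26, an organic anion transporter family gene, had the largest difference of the family. It read 6.90, 6.76 and 4.74 on knockout replicates 1 to 3 and 3.52, 2.85 and 3.21 on control replicates 1 to 3. All knockout arrays lay above all controls, replicate 3 least so, and the controls lay around the dim limit. The means were 6.13 ± 1.21 and 3.19 ± 0.34 (SD, n = 3), a 7.66-fold difference (log2 2.94, SE 0.49, limma adjusted p = 0.145). The fold is uncertain because the control level is dim. Without knockout replicate 3 the log2 difference was 3.64 and passed (adjusted p = 0.000354, range over 14 alternatives 0.000354 to 0.616).

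Slc22a27, its neighbour in the same gene run, read 3.23, 3.83 and 2.42 in the knockout and 1.64, 1.64 and 1.76 in the controls. The groups did not overlap, and the control spread was small (3.16 ± 0.71 against 1.68 ± 0.07, SD, n = 3). The log2 difference was 1.48 (2.79-fold, SE 0.30, limma adjusted p = 0.215). Only the knockout mean exceeded the dim limit, so the fold is uncertain. Without knockout replicate 3 it was 1.85 and passed (adjusted p = 0.0117, range over 13 alternatives 0.0117 to 0.642).

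Slc22a29, further along the run, read 2.20, 1.46 and 1.21 in the knockout and 1.02, 0.85 and 0.98 in the controls. Every knockout value lay above the controls, yet all 6 were below the dim limit. The log2 difference was 0.67 (SE 0.23, limma adjusted p = 0.367), and without knockout replicate 1 it was 0.39.

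Slc22a28 and Slc22a30 lie between and beside these genes and are described after their values were seen. Slc22a28 read 4.61, 4.72 and 6.03 in the knockout and 5.43, 5.36 and 6.26 in the controls. Slc22a30 read 3.39, 3.78 and 4.81 in the knockout and 4.14, 4.64 and 4.85 in the controls. In both genes knockout replicates 1 and 2 lay below all controls and knockout replicate 3 lay inside the control range. The log2 differences were -0.56 (SE 0.37, limma adjusted p = 0.633) for Slc22a28 and -0.55 (SE 0.33, adjusted p = 0.592) for Slc22a30. Without knockout replicate 3 they were -1.01 and -0.96, and without other single arrays they ranged up to -0.27 and -0.25. Neither passed without knockout replicate 3 (adjusted p = 0.193 and 0.165, ranges over 14 alternatives 0.193 to 0.887 and 0.165 to 0.841).

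**Figure D2:**
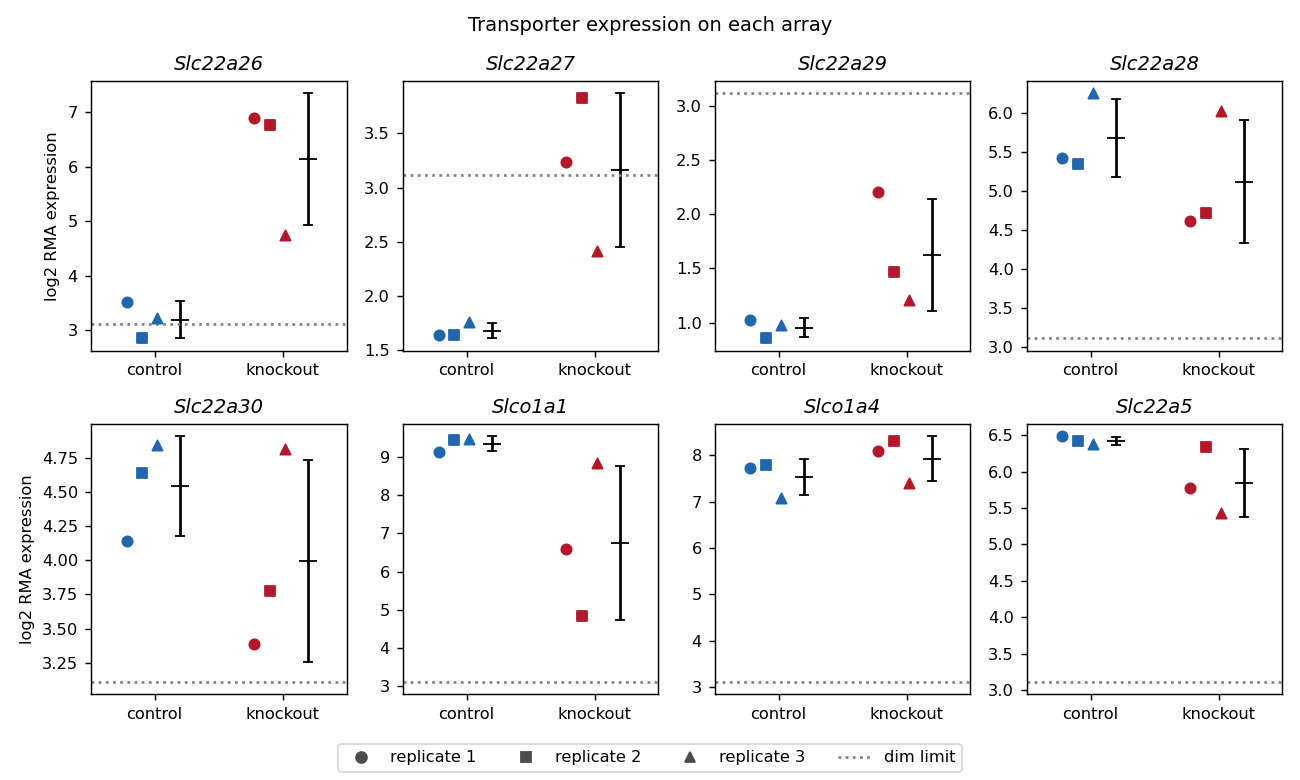
Log2 RMA expression (y axis, scaled per gene) on each array for 8 transporters, control in blue and knockout in red, with marker shapes for replicates 1 to 3. Black bars are the mean ± SD of 3 arrays, and the dotted line is the dim limit of 3.11. Knockout replicate 3 lies nearer the controls than replicates 1 and 2 for Slc22a26, Slc22a27 and Slco1a1, and farthest from them for Slc22a5.

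Genes at and beyond the borders of this run had smaller differences. In RefSeq gene order it reads Slc22a19, Slc22a26, Slc22a27, Slc22a28, Slc22a29, Slc22a30, Slc22a8 and Slc22a6. Slc22a19 at 1 end differed by 0.11 (SE 0.16), and both its group means were below the dim limit. At the other end Slc22a8 (OAT3), a basolateral carrier of kidney tubules, differed by -0.24 (SE 0.17), and Slc22a6 (OAT1), its partner there, by 0.04 (SE 0.21). The 8 nearest tested genes outside the run, from Atl3 to 1700092M07Rik, differed by -0.30 to 0.31, with 0 at an unadjusted p under 0.05. The differences among neighbours were not tested against each other.

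**Figure D3:**
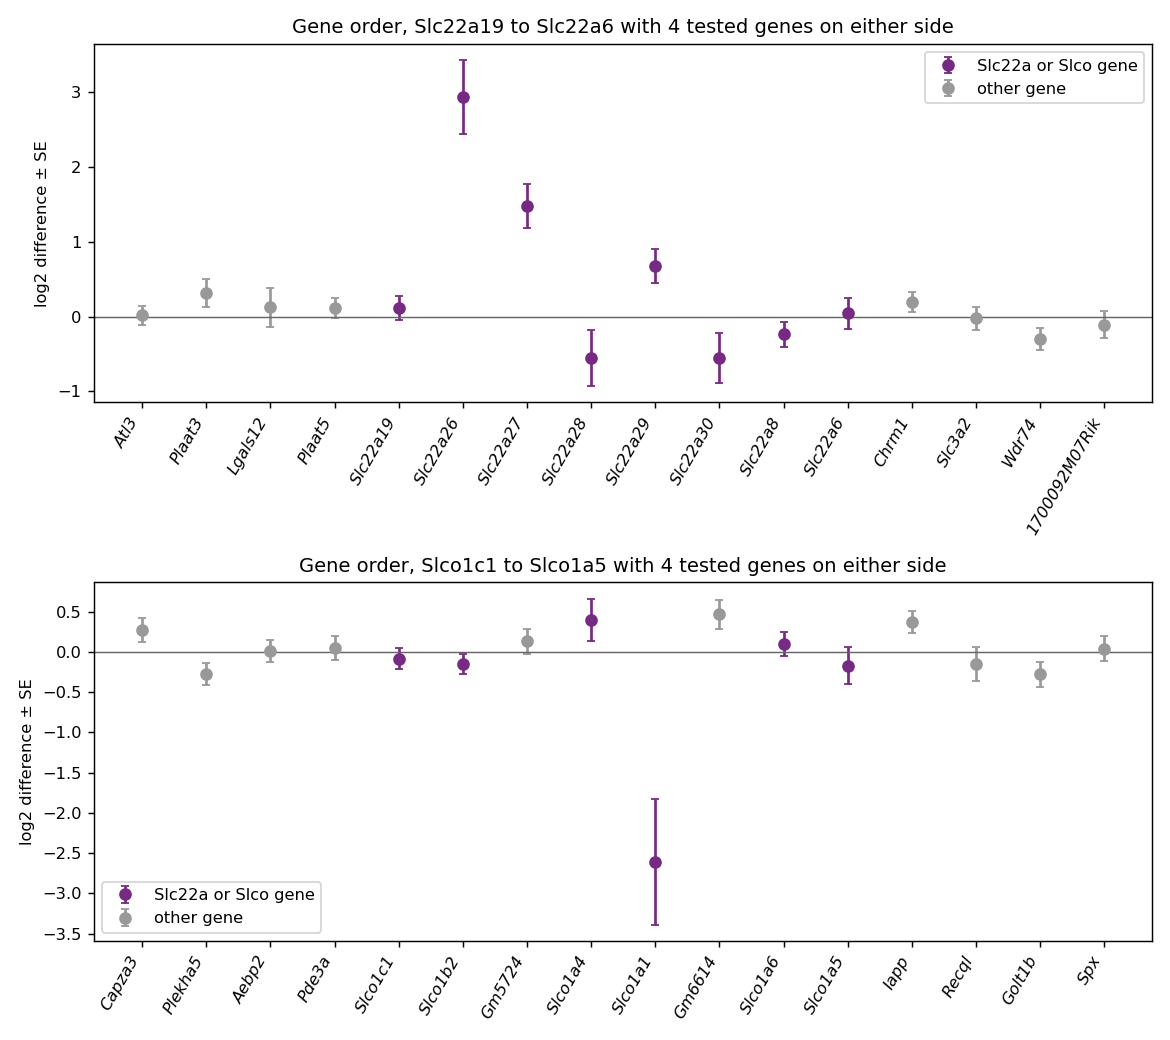
Log2 difference ± SE (y axis) of genes in RefSeq order (x axis, not to distance) across the Slc22a run on chromosome 19 and the Slco1 run on chromosome 6, each with 4 tested genes on either side. Family genes are purple and other genes grey. Slc22a26 (2.94) and Slc22a27 (1.48) stand beside Slc22a28 (-0.56), and Slco1a1 (-2.61) beside Slco1a4 (0.40).

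Slco1a1 (OATP1A1), an uptake carrier of bile acids and steroid sulfates known to be male-predominant in mouse liver, had the largest negative difference. It read 6.58, 4.82 and 8.85 in the knockout and 9.14, 9.46 and 9.47 in the controls. All knockout arrays lay below all controls, but replicate 3 was only just below while replicate 2 was far below. The knockout spread was accordingly wide, 6.75 ± 2.02 against 9.36 ± 0.19 (SD, n = 3). The difference was 6.09-fold lower (log2 -2.61, 95% confidence interval -4.37 to -0.85, limma adjusted p = 0.326). Its size rested on single arrays, at -3.66 without knockout replicate 3, where it passed (adjusted p = 0.0147, range over 14 alternatives 0.0147 to 0.697), and -1.64 without knockout replicate 2.

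Slco1a4 (OATP1A4), the next gene along and a carrier of bile acids and digoxin, read 8.09, 8.31 and 7.40 in the knockout and 7.72, 7.79 and 7.09 in the controls. The groups overlapped, since knockout replicate 3 lay inside the control range. The log2 difference was 0.40 (SE 0.26, 95% confidence interval -0.19 to 0.99, limma adjusted p = 0.626). It was 0.66 without knockout replicate 3, 0.21 without knockout replicate 2 and 0.17 without control replicate 3.

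Slco1b2 (OATP1B2), the main hepatocyte carrier of bilirubin and unconjugated bile acids, had a small difference. It read 10.7, 10.7 and 10.6 in the knockout and 10.8, 10.8 and 10.9 in the controls. The groups did not overlap, at a log2 difference of only -0.15 (SE 0.12, limma adjusted p = 0.705). Its 95% confidence interval, -0.43 to 0.13, corresponds to 0.743-fold to 1.09-fold.

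The other Slco1 genes were dim in both groups. Slco1c1, a thyroid hormone carrier of the blood-brain barrier, differed by -0.09 (SE 0.13), Slco1a5 by -0.17 (SE 0.23) and Slco1a6 by 0.10 (SE 0.15). Gm5724 and Gm6614, genes that lie within the same run but carry no Slco symbol, differed by 0.13 and 0.47, also below the dim limit. The 8 nearest tested genes outside the Slco1 run differed by -0.28 to 0.37. Gm6614 inside the run and Iapp (0.37) outside it were at an unadjusted p under 0.05, both dim in both groups and with all knockout values above the controls. Start windows of the Slco1 genes were not closely alike, with 42.1% to 53.6% identity over 20 comparisons.

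Slc22a5 (OCTN2) brings carnitine into the cell, which fatty acids need to enter mitochondria, and is a known target of PPARA. It read 5.77, 6.35 and 5.43 in the knockout and 6.49, 6.42 and 6.38 in the controls. All knockout arrays lay below all controls, replicate 2 only just, while the controls lay close together (6.43 ± 0.05, SD, n = 3, against 5.85 ± 0.46). The difference was 1.49-fold lower (log2 -0.58, SE 0.21, limma adjusted p = 0.398). For this gene knockout replicate 3 was the lowest array, and leaving it out reduced the log2 difference to -0.37. The related zwitterion carriers Slc22a4 (OCTN1, which carries ergothioneine) and Slc22a21 (OCTN3) were dim in both groups and differed by 0.53 (SE 0.26) and -0.03 (SE 0.14). Slc22a4 ranged from 0.29 without control replicate 3 to 0.84 without control replicate 2, where it had an unadjusted p under 0.05.

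Slc22a7 (OAT2), an anion and nucleotide-related carrier of hepatocytes, read 3.77, 3.99 and 4.09 in the knockout and 4.06, 4.27 and 4.25 in the controls. The groups overlapped by a narrow margin. The log2 difference was -0.24 (SE 0.14, limma adjusted p = 0.576).

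Slco2b1 (OATP2B1), a carrier of sulfated steroids, read 7.47, 7.64 and 7.33 in the knockout and 7.56, 7.67 and 7.56 in the controls. The groups overlapped and differed by -0.12 (SE 0.13, limma adjusted p = 0.796). Its dimmer second probe set gave 0.01. Slco2a1, the prostaglandin transporter, differed by -0.33 (SE 0.19), by -0.53 without knockout replicate 3 and by -0.22 without knockout replicate 1.

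**Figure D4:**
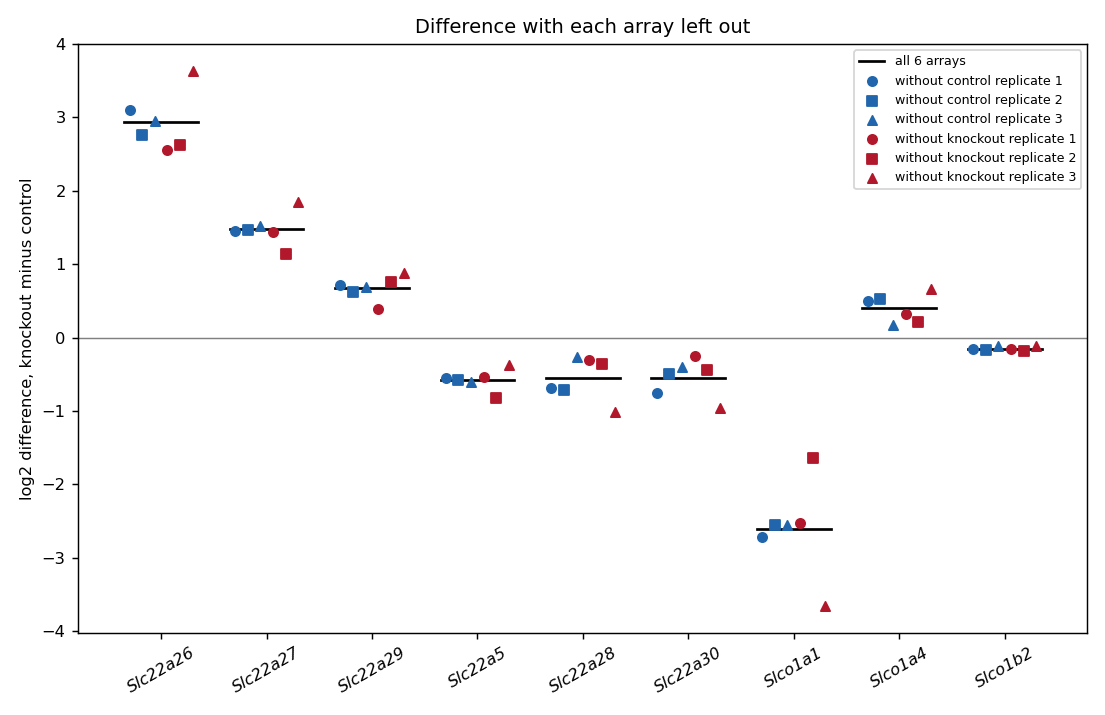
Log2 difference, knockout minus control (y axis), of 9 transporters with all 6 arrays (black line) and with each array left out (blue, a control; red, a knockout). Leaving out knockout replicate 3 moved Slc22a26 to 3.64 and Slco1a1 to -3.66, while Slco1b2 stayed between -0.18 and -0.11.

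The remaining members above the dim limit in both groups gave small differences. Slc22a18, encoded in an imprinted region, differed by 0.00 (SE 0.15) and Slc22a17, a receptor for lipocalin 2, by 0.01 (SE 0.13). Slc22a12 (URAT1), the urate exchanger of the kidney, differed by 0.06 and Slc22a13 (OAT10) by 0.16. Slc22a15, Slco3a1 and Slc22a23 differed by 0.17, 0.20 and -0.26. None of these 7 was at an unadjusted p under 0.05.

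Below the limit in both groups were 20 members, whose differences ran from -0.27 to 0.67. Among them Slc22a20 (0.32) and Slco5a1 (0.22) also had all knockout values above the controls. The kidney cation transporter Slc22a2 (OCT2) differed by -0.05. The testis-associated Slco6b1, Slco6c1 and Slco6d1 differed by 0.03, 0.18 and 0.07. Slc22a14, known from sperm, and the testis carnitine carrier Slc22a16 differed by 0.06 and 0.02. Slc22a13b, Slc22a22, Slco4a1 and Slco4c1, the last of those not named above, differed by -0.27, -0.12, 0.14 and 0.05.

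Transporters that work beside these families, chiefly the canalicular and sinusoidal efflux pumps, were read from a list of 21 genes, of which 20 were measured. Of these 3 were lower and 0 higher at an unadjusted p under 0.05, against 5.46% lower and 5.06% higher of all genes. The median log2 difference was -0.16 (all genes 0.00), and 0 passed the adjusted threshold. Most of the list lay above the dim limit, where genes leaned lower, with a median of -0.04 for those above it in both groups. Among 13427 genes with at least 3 arrays above the limit, 1163 were lower and 675 higher at that p. Abcg2 (BCRP), the canalicular pump for sulfate conjugates and urate, read 4.99, 5.19 and 5.15 in the knockout and 5.98, 5.97 and 6.13 in the controls. The groups were far apart relative to their spread, at -0.92 (SE 0.13, limma adjusted p = 0.0888). The other 2 were Slc16a10, an aromatic amino acid carrier (-0.39, SE 0.16, adjusted p = 0.447), and Abcc6, a hepatocyte ABC transporter (-0.33, SE 0.14, adjusted p = 0.451). Among those not past that p, the bile acid importer Slc10a1 (NTCP) differed by 0.22 (SE 0.13), the bile salt export pump Abcb11 by -0.14 (SE 0.14), Abcc2 by -0.22 (SE 0.13) and the cation exporter Slc47a1 (MATE1) by -0.13 (SE 0.14).

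Of 22 listed regulators and adaptors of these transporters 20 were measured, 4 lower and 1 higher at an unadjusted p under 0.05, against 5.46% lower and 5.06% higher of all genes. The median was -0.07 (genes above the dim limit in both groups -0.04), and 0 passed the adjusted threshold. Nr1i2, the xenobiotic receptor PXR, differed by -0.42 (SE 0.14, limma adjusted p = 0.348) and Hnf4a, a hepatocyte transcription factor, by -0.36 (SE 0.13, adjusted p = 0.399). Bcl6, a repressor that acts against STAT5 on sex-biased liver genes, read 4.63, 5.02 and 4.63 in the knockout and 4.68, 6.92 and 5.95 in the controls. Its groups overlapped because control replicate 1 was low (-1.09, SE 0.45, adjusted p = 0.439). Ahr, the dioxin receptor, differed by -0.40 (SE 0.17, adjusted p = 0.450). Stat5b, the growth hormone-activated factor, differed by 0.41 (SE 0.18, adjusted p = 0.454), with all knockout values above the controls. The receptor CAR, Nr1i3, differed by -0.16 (SE 0.15), the bile acid receptor FXR, Nr1h4, by -0.08 (SE 0.14), and Cux2, known as a female-biased liver factor, by 0.28 (SE 0.15). Stat5a, Ghr and Onecut1 differed by -0.03 (SE 0.17), 0.11 (SE 0.13) and -0.01 (SE 0.23), and their groups overlapped. Ppara differed by -0.26 (SE 0.13, limma adjusted p = 0.507), with all knockout values below the controls. Links between these regulators and the transporters were not tested.

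**Figure D5:**
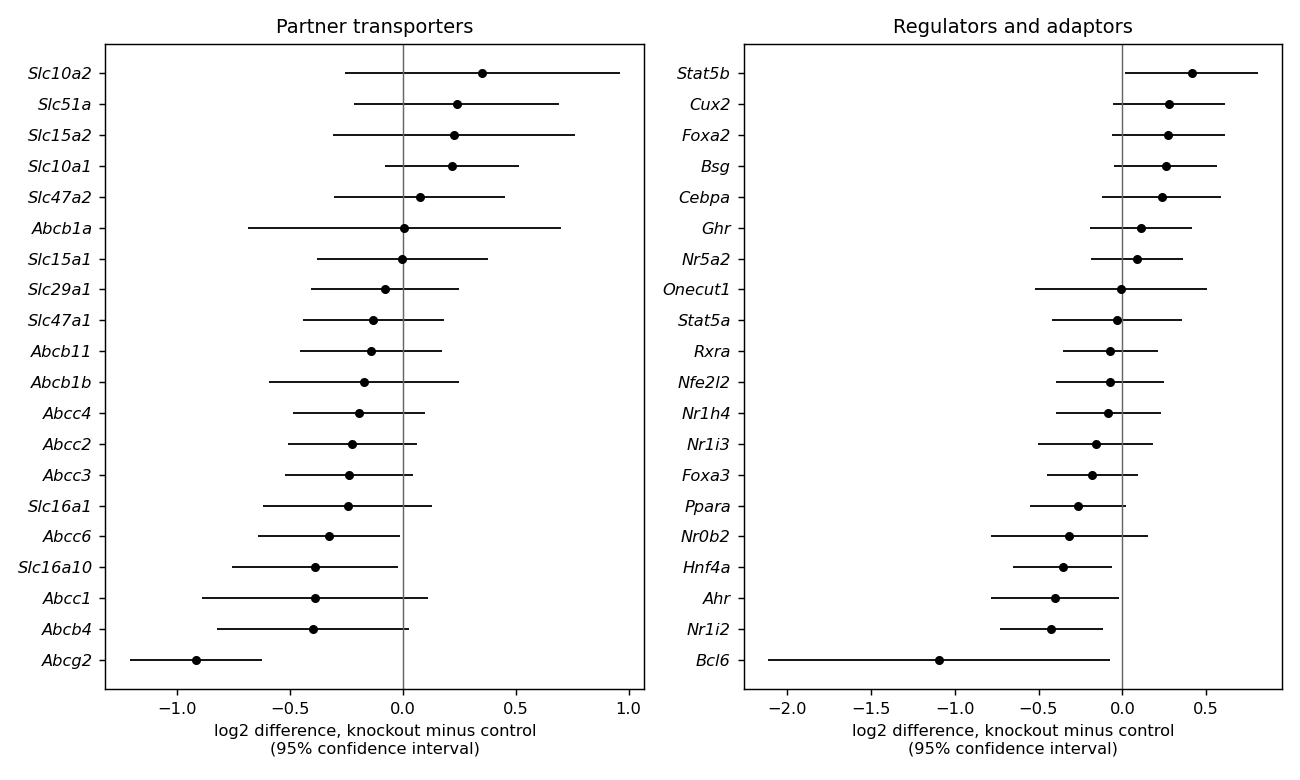
Log2 difference, knockout minus control (x axis), with its 95% confidence interval from limma for 20 partner transporters (left) and 20 regulators and adaptors (right), n = 3 arrays per group. Abcg2 (-0.92) and Bcl6 (-1.09) lie lowest, and Stat5b (0.41) highest among the regulators.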

How the data were processed

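Total liver RNA of 6 samples was hybridised to 1 Affymetrix whole-transcript array each. Per the submitters' processing notes the authors used Affymetrix Expression Console 1.4.1 and RMA; the deposited values are log2 expression of 41345 probe sets, with array medians of 3.11 to 3.16. Genome build and probe positions are not given in the sources used here. Probe sets were named from the platform annotation, 23521 having 1 symbol; for genes with several, the one with the highest mean was taken.

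A linear model on group was fitted to all 22180 genes with lmFit and eBayes (limma 3.58.1, R 4.3.3), 2-sided, with Benjamini-Hochberg adjustment and a threshold of 0.05. Tested on simulated data of 22180 genes, the model recovered 72% of 50 genes shifted by 1 log2 unit. The same data held 50 genes each shifted by 2, 3 and 4 log2 units, of which 100% were recovered. Such genes ease the adjusted cut-off for the others, whereas 0 genes passed in the real data. The simulation gave both groups the same spread and shifted only genes above the dim limit. In the real data the median SD of a gene was 0.19 in the knockout and 0.15 in the control. The recovery may therefore not hold for these arrays, least of all for genes with a wide knockout spread. The 3 arrays per group limit the precision, and 0 pairs of arrays were identical. Replicate numbers were not treated as pairs, since deviations of same-numbered arrays correlated at 0.01 to 0.05.

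The members, the gene lists and the rule for named genes were chosen with earlier results of these data known. The rule took every family member, giving array values for those at an unadjusted p under 0.05, those above the dim limit without overlap, and liver transporters with textbook roles, and up to 6 list genes at an unadjusted p under 0.05; other genes named, including all neighbours, were chosen after their values were seen. Promoter windows were compared by global alignment (Biopython 1.88). Alternatives were a variance prior with an intensity trend or robust, a dim filter (at least 3 arrays above 3.11), median centring, quantile normalization, the mean of a gene's probe sets, array weights, the replicate block and leaving out each array.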

Additional observations from a re-analysis of the deposited data

How the results depend on the processing

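Among all genes, 0 passed the adjusted threshold in the main model, 25 when the variance prior followed intensity, 8 with the dim filter, 1 with the replicate block and 0 to 66 with 1 array left out. Of the 39 transporters, 0 passed in the 8 alternatives that kept all arrays, and 0 to 3 with 1 array left out; the 3 were Slc22a26, Slc22a27 and Slco1a1 without knockout replicate 3. At an unadjusted p under 0.05, 3 members were higher and 2 lower in the main model. The dim filter, which kept 18 members and dropped Slc22a27 and Slc22a29, left 1 higher. Leaving out an array gave 3 to 4 higher and 1 to 4 lower: Slc22a5 dropped out without knockout replicate 1, knockout replicate 3, control replicate 1 or control replicate 2, and Slc22a29 without control replicate 2. Slc22a26, Slc22a27 (in the 13 alternatives that tested it) and Slco1a1 kept an unadjusted p under 0.05 in their main direction in every alternative run. With the replicate block 4 members were higher and 4 lower, Slco1a4, Slc22a28 and Slc22a30 being added; deviations of same-numbered arrays correlated at 0.01 to 0.05, under the 0.1 taken as pairing, while 4 of 6 arrays correlated best with their own number, a hint from the data and not from the design. The block changed no adjusted call of a transporter. No scaling moved the median of all genes by over 0.1. Signal near the dim limit restricts what can be said of the 20 members below it, and no probe-level background was used here.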
